A study of Drosophila melanogaster with 2 samples.

Results

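Mef2 and the 10000 bp to either side of it held 38 of the 30000 peak summits called on both replicates of a Kah ChIP-seq experiment together. It held 8 of the 4105 summits of the list thresholded for reproducibility. The gene (FBgn0011656) lies on the minus strand of chromosome arm 2R at 9913496 to 9958858 (dm6), spans 45363 bp and has 11 annotated transcripts from 3 transcription start sites (TSSs), so that the window examined ran over 65363 bp at 9903496 to 9968858. Mef2 was chosen by the signals in these same peak lists, because its strongest summit was among the highest of the genome. Signals, ranks and counts at the gene are therefore given as a description, with no test.

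The experiment had 1 group of 2 biological replicates and no second condition. Chromatin came from whole Drosophila melanogaster embryos, 0 to 16 h old and of mixed sex, of 1 transgenic line, kah-GFP, that stably carries Kah fused at its C-terminus to green fluorescent protein. ChIP-seq recovers sheared DNA, here of 200 to 800 bp, that an antibody brings down with a protein, and the labels name kah as the target while their free text calls both libraries input controls. Each replicate had its own list of 30000 candidate summits, and a further pooled list was made from both. The irreproducible discovery rate (IDR), which weighs how alike replicates rank peaks, left the 4105. These were the 4105 pooled candidates of highest signal, so a single IDR summit need not have a match in both replicates. Because whole embryos of a 16 h span were used, every value is a mixture over all tissues and stages, in which muscle and its precursors cannot be told apart from other cells.

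Mef2 encodes the fly's MADS-box transcription factor of the MEF2 family, which binds AT-rich sites and is needed for the differentiation of somatic, visceral and heart muscle. In the fly its transcription is started in the mesoderm by Twist, maintained by further factors such as Tinman and Lame duck and by Mef2 protein itself, and driven through many separate enhancers along the locus. Kah (Kahuli) belongs to the Snail family of zinc finger proteins, whose members bind E-box sequences with the core CAGGTG and often act as repressors.

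The 3 start sites divide the gene into stretches that received very different amounts of signal. The distal TSS at 9958858 begins transcripts RF and RH, the middle TSS at 9944764 begins RG, 14094 bp farther downstream, and the proximal TSS at 9929615 begins the 8 remaining transcripts, 29243 bp downstream of the distal one. Translation starts at 9921663 in all 11, so the 37.195 kb from the distal TSS to that position are introns and 5' untranslated exons. This non-coding part held 32 of the 38 pooled summits and 6 of the 8 IDR summits. The 5.206 kb from the start to the end of the coding sequence held 1 pooled summit and 0 IDR summits, and the 2.962 kb beyond it held 0 of either kind. The same stretch held most summits in each replicate, with 28 of 34 replicate 1 summits and 29 of 36 replicate 2 summits in the non-coding part.

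**Figure D1:**
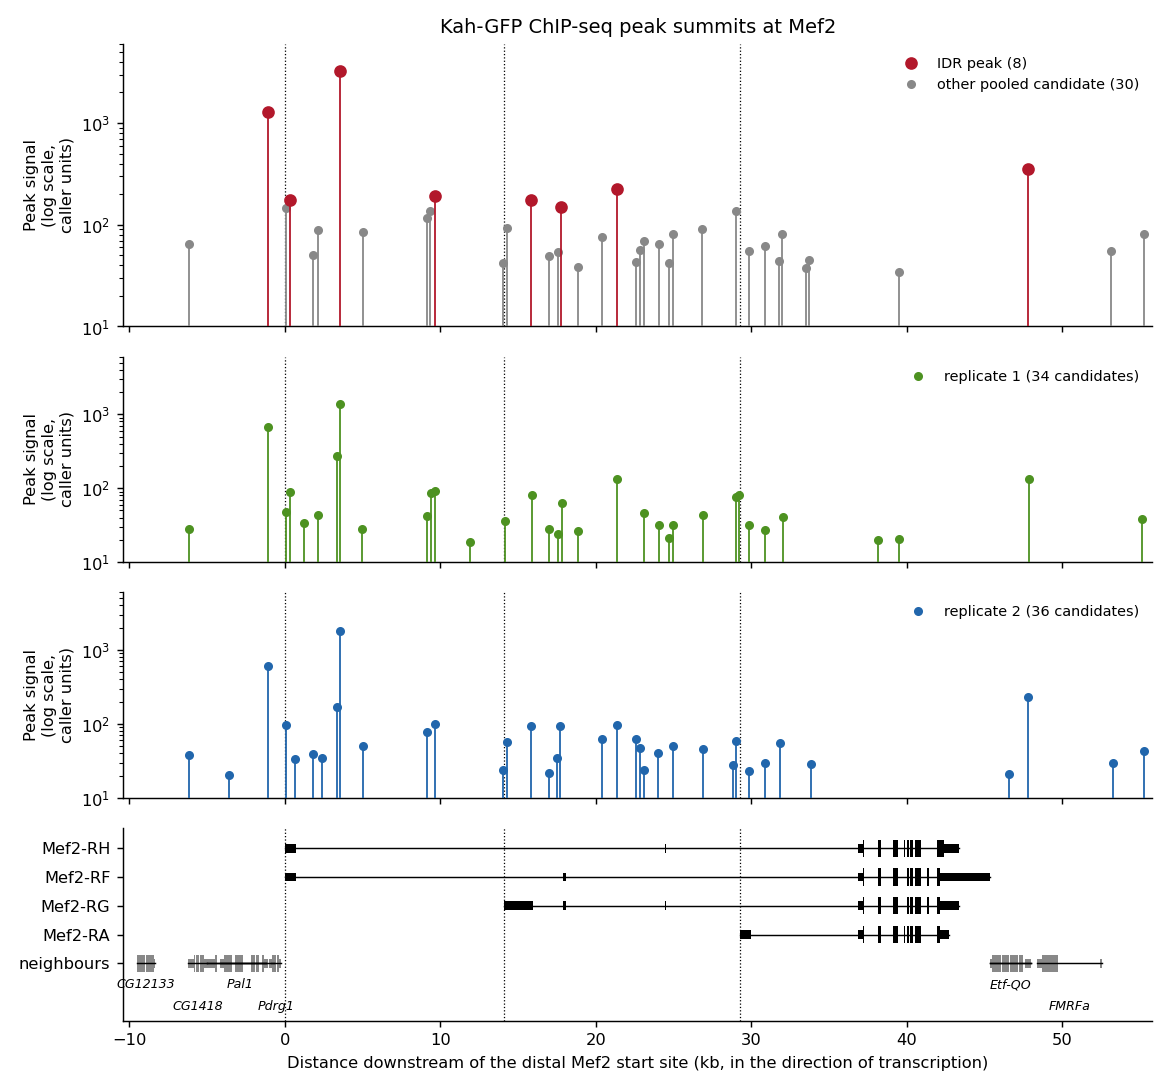
Peak signal (caller units, log scale) of every summit against its distance from the distal Mef2 TSS (kb, in the direction of transcription), for the pooled list with IDR summits in red, for replicate 1 and for replicate 2. Below them are 4 Mef2 transcripts and the neighbouring genes, with the 3 TSSs as dotted lines. One summit 3.547 kb into the gene stood above all others in each list, and few summits lay over the coding exons at the right end of the gene.

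The strongest summit of the locus lay in an intron. It was at 9955311, within an interval at 9955054 to 9955800, 3547 bp downstream of the distal TSS, 10547 bp upstream of the middle one and 25696 bp upstream of the proximal one. Its signal, a value on the scale of the authors' peak caller, was 3222 in the IDR list, 1378 in replicate 1 and 1821 in replicate 2. It was the summit of highest signal in the window in all 3 lists, and it ranked 9 in the IDR list, 11 of 30000 in replicate 1 and 7 of 30000 in replicate 2. The replicate summits were 4 bp and 0 bp away from it. By transcript, the summit lay 2813 bp into the first intron of RF and RH, which runs for 17170 bp in RF and 23746 bp in RH. The interval of 747 bp was wider than those of most IDR peaks, whose median was 424 bp, and only 37 of the 4105 (0.901%) were wider.

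A lower summit stood beside it in each replicate that the pooled list did not keep. Replicate 1 had one at 9955515 with a signal of 271 (rank 467), 204 bp toward the distal TSS, and replicate 2 had one at 9955526 with 172 (rank 1153), 215 bp toward it. These are 11 bp apart, and the pooled list had no summit within 100 bp of either. Among the 4105 candidates of highest signal, 2.31% in replicate 1 and 2.07% in replicate 2 had no pooled summit within that distance. Over the whole window, 6 of 34 summits of replicate 1 and 6 of 36 of replicate 2 had none, and in each replicate only this one was matched by the other replicate.

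The second summit of the locus was on the upstream side, near the starts of Pal1 and Pdrg1. It lay at 9959914 (interval 9959721 to 9960117), 1056 bp upstream of the distal Mef2 TSS, with a signal of 1300 in the IDR list (rank 77), 683 in replicate 1 (rank 65) and 606 in replicate 2 (rank 99). Both replicates put it on the same base. It lay in an intron of Pal1, which encodes a peptide-amidating lyase of neuropeptide processing and is transcribed away from Mef2, 164 bp from one Pal1 TSS and 365 bp from the other. It was also 182 bp from the TSS of Pdrg1, so that 3 genes have a start within 1056 bp of it, and position alone cannot assign it to one of them. Below, "the summit at Pal1" names only the gene whose intron it lies in. The signal of the strongest summit was 2.48-fold that of this one in the IDR list, 2.02-fold in replicate 1 and 3.01-fold in replicate 2.

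The remaining IDR summit outside the gene was at the promoter on the other side. It lay at 9911064 in the 5' UTR of Etf-QO, a mitochondrial electron transfer enzyme gene, 171 bp from that gene's TSS and 18551 bp downstream of the proximal Mef2 TSS. Its signal was 356 in the IDR list (rank 1011), 133 in replicate 1 and 229 in replicate 2. The strongest Mef2 summit exceeded it 9.04-fold in the IDR list, 10.4-fold in replicate 1 and 7.97-fold in replicate 2. The other genes of the window, the neuropeptide gene FMRFa, CG1418 and CG12133, had no IDR summit within 500 bp of a TSS.

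Within the gene, 5 further IDR summits had signals of 150.5 to 227, all below the median of 233 over all IDR summits. At the distal promoter, 312 bp downstream of the TSS and in exon 1 of RF and RH, the summit at 9958546 had 173 in the IDR list (rank 3288) and 88.3 in replicate 1, 1 bp away. Replicate 2 had no summit within 100 bp of it, and its nearest was 265 bp off at 9958811, with a signal of 96.1. That position, 47 bp downstream of the TSS, was a separate pooled candidate of 144.7, so the distal promoter carried signal in both replicates with the highest point at different places.

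The other 4 lay farther inside and had a replicate summit within 100 bp in both lists. The summit at 9949171, in the intron 4407 bp upstream of the middle TSS, had a signal of 193 in the IDR list, 91.2 in replicate 1 and 100.8 in replicate 2. That at 9943007, in the 5' UTR exon of RG 1757 bp downstream of the middle TSS, had 175 in the IDR list, 81.0 in replicate 1 and 94.0 in replicate 2. These 2 regions had nearly equal signals on either side of the middle TSS. Farther downstream, the intronic summit at 9941087, 3677 bp past the middle TSS, had 150.5 in the IDR list, 63.0 in replicate 1 and 92.5 in replicate 2. The replicate summits there lay 34 bp and 74 bp from it on opposite sides, and so not within 100 bp of each other. The last, at 9937478, 7286 bp past the middle TSS and 7863 bp before the proximal one, had 227 in the IDR list, 132 in replicate 1 and 97.8 in replicate 2, and was the only one of the 4 that was higher in replicate 1.

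**Figure D2:**
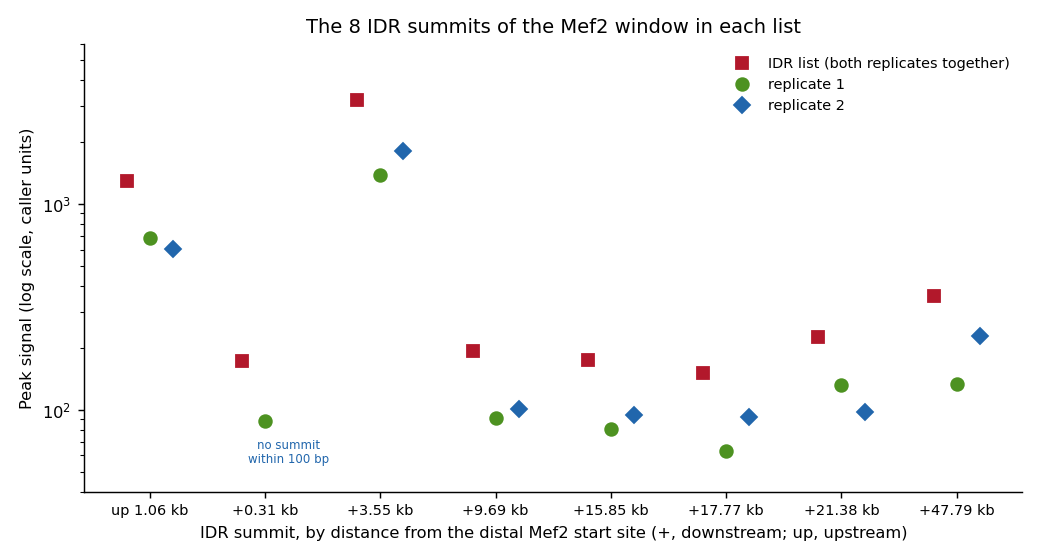
Peak signal (caller units, log scale) of the 8 IDR summits of the Mef2 window in the IDR list (squares), replicate 1 (circles) and replicate 2 (diamonds), ordered along the gene by distance from the distal TSS. The summit at 3.547 kb had 3222, 1378 and 1821 in these lists, and the summit 0.312 kb downstream of the TSS had no replicate 2 summit within 100 bp.

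The TSSs themselves had far less signal than the strongest summit. The other intronic IDR summits of Mef2, at 150.5 to 227, lay on either side of the 173 at the distal TSS. Within 500 bp of the distal TSS the highest of 2 candidates was the IDR summit of 173, within 500 bp of the middle TSS the highest of 2 was 93.3, and at the proximal TSS the only candidate had 135. The strongest summit was 18.6-fold, 34.5-fold and 23.8-fold above them, in that order. Neither the middle nor the proximal TSS had an IDR summit. At the proximal TSS, where most transcripts begin, the pooled candidate 212 bp upstream had 77.2 in replicate 1 and 58.7 in replicate 2. Replicate 1 also had a summit of 80.1 (rank 3679) only 22 bp upstream of that TSS, with no pooled summit within 100 bp.

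The IDR threshold fell close below the weakest IDR summits of the window. The weakest IDR summit had 150.5 (rank 4069 in the pooled list) and the strongest remaining candidate, the one 47 bp downstream of the distal TSS, had 144.7 (rank 4315), where the lowest IDR signal anywhere was 149.7. The next candidates below it were at 9949496 (136, in the intron, 4732 bp upstream of the middle TSS), the proximal promoter (135) and 9949737 (117). Together with the IDR summit at 9949171, the 2 intronic ones formed a run of 3 summits within 566 bp. The 30 candidates below the threshold had signals of 34.2 to 144.7 with a median of 63.3, against a median of 52.6 over all 25895 candidates below it.

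**Figure D3:**
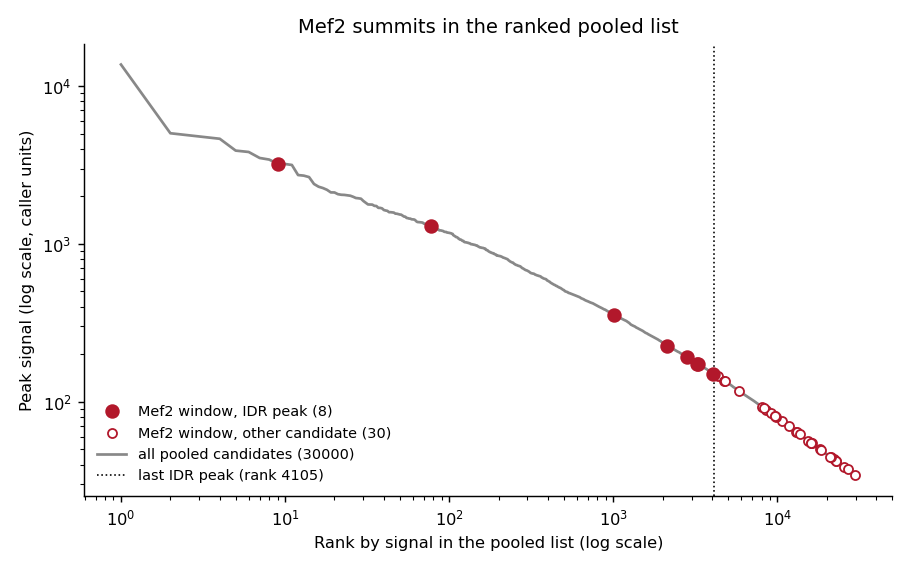
Peak signal (caller units, log scale) against rank in the pooled list (log scale) for all 30000 candidates (line), with the 8 IDR summits of the Mef2 window filled and its 30 other candidates open; the dotted line marks rank 4105. The window's summits run from rank 9 to rank 29870, with 2 in the first 100 and a cluster close to the threshold.

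By stretch, the density of summits and their signals did not run together. Between the distal and middle TSSs, 10 candidates in 14.094 kb had a median signal of 127 and included 3 IDR summits. Between the middle and proximal TSSs there were 16 candidates in 15.149 kb, 1.06 per kb, with a lower median of 72.5 and also 3 IDR summits. Downstream of the proximal TSS the gene held 7 candidates in 16.12 kb with a median of 44.8 and a highest value of 81.4, and 0 IDR summits. The densest stretch was thus the one before the proximal TSS and the strongest summit was in the stretch before the middle TSS. The flanks of 10 kb held 2 candidates with 1 IDR summit upstream and 3 with 1 IDR summit downstream.

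The summits were closely spaced. Neighbouring candidates in the window were 199 to 8286 bp apart with a median of 1055 bp, against 1480 bp over all candidates, and 11 of the 37 gaps (29.7%) were under 500 bp, against 15.8% of all gaps. These short gaps joined candidates into 9 runs of 2 or 3 summits, of which the widest, 566 bp, is the one around 9949171, and 3 runs include an IDR summit. The 8 IDR summits were separated, from upstream to downstream, by 1368, 3235, 6140, 6164, 1920, 3609 and 26414 bp. Their median gap of 3609 bp compares with 10239 bp over all IDR summits, and the widest gap covers the coding exons and the 3' end of Mef2. In summits per kb, the window had 0.581 candidates and 0.122 IDR summits, against 0.218 and 0.0298 over the full length of the chromosomes. Over all protein-coding genes with the same flanks, the medians were 0.269 and 0.0409.

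Of the window's 38 candidates, 8 were IDR peaks, or 21.1% (exact Clopper-Pearson 95% interval 9.55 to 37.3%), and 13.7% of all pooled candidates were. The interval, which covers counting error only, contains the share of the genome. In each replicate's own list, the 4105 candidates of highest signal make up the same share. In the window they were 11 of 34 in replicate 1 (32.4%, 17.4 to 50.5%), that is without replicate 2. They were 9 of 36 in replicate 2 (25%, 12.1 to 42.2%), that is without replicate 1. The interval of replicate 1 lies above the share of the genome, and those of replicate 2 and the pooled list contain it. Mef2 was chosen by signal in these lists, so none of these intervals is a test. By annotation, 28 of the 38 summits were in introns (73.7%), against 49.8% of all candidates, 8 were in 5' UTRs (21.1% against 11.1%), 2 were intergenic (5.26% against 28.2%), and none was in a coding exon or 3' UTR. The window was laid around a gene with 37.195 kb of introns and 5' untranslated exons, so the genome shares are not a matched baseline. How much of the window's sequence is intronic or intergenic was not computed, and no difference in features is read from these shares. A protein-coding TSS lay within 500 bp of 3 of the 8 IDR summits (37.5%), against 50.5% of all IDR summits. Their median distance to such a TSS was 2652 bp, against 478 bp. With 8 summits these values are too few to set the locus apart from other IDR summits.

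Agreement between the replicates in the window was close to that elsewhere. A summit of each replicate lay within 100 bp of 21 of the 38 candidates, or 55.3% (38.3 to 71.4%), against 45.5% of all pooled candidates. At 9941087 and 9941295 the replicate summits lay on opposite sides of the candidate and more than 100 bp from each other. Replicate 1 alone matched 7, replicate 2 alone matched 9, and the candidate at 9925352, with a signal of 37.3, had neither. Of the 8 IDR summits 7 were matched in both, against 95.1% of all IDR summits. The IDR list was the top of the pooled list by signal, and the pooled list was made from these same replicates. The recurrence of IDR summits in them is therefore not independent evidence.

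The signals of the 2 replicates at Mef2 differed by about as much as at other places. Over all 13641 matched candidates the log2 ratio (replicate 2 over replicate 1) had a median of 0.11 and an SD of 0.62, or 1.54-fold. This SD serves here as the scale for differences between the replicates at a summit. After subtraction of that median, the strongest summit was at 0.30, or 0.474 SD, and the summit at Pal1 at -0.28, or -0.447 SD. The 7 matched IDR summits ran from -0.862 SD at 9937478 to 1.08 SD at the Etf-QO promoter. The largest deviations were among weak candidates, with 1.47 SD 47 bp downstream of the distal TSS (47.2 in replicate 1 and 96.1 in replicate 2) and -1.66 SD at 9935751 (45.6 in replicate 1 and 24.0 in replicate 2). Of the 21 matched candidates 16 were within 1 SD (76.2%, against 70.2% of all), 14 lay above the median ratio and 7 below it. Differences between the IDR summits of 150.5 to 193 are smaller than this 1.54-fold spread. The spread is between single replicates and is not the error of a pooled signal, which is unknown, so the order of these summits is not interpreted.

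**Figure D4:**
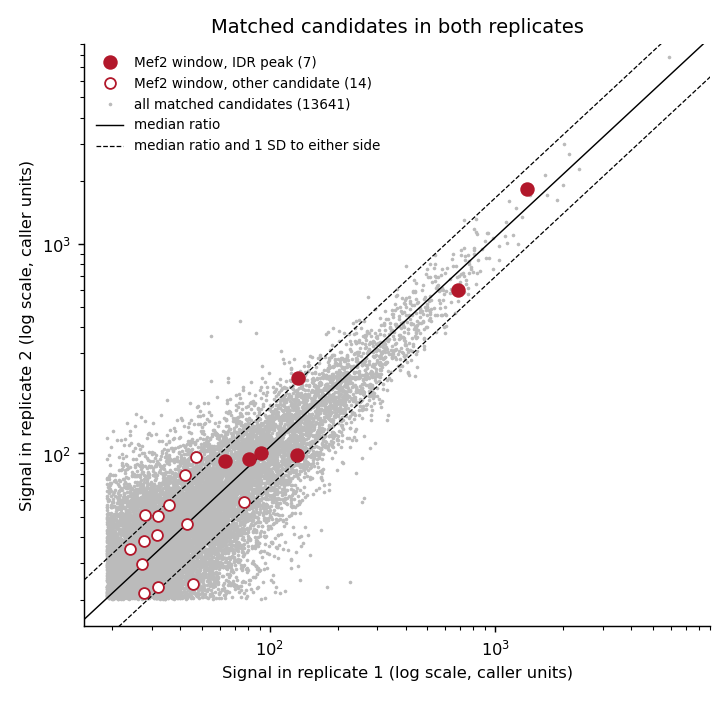
Signal in replicate 2 against signal in replicate 1 (caller units, both axes log) for all 13641 pooled candidates matched in both (grey), the 7 matched IDR summits of the Mef2 window (filled) and its 14 other matched candidates (open), with the median ratio and 1 SD of the log2 ratio to either side. Most Mef2 points, 16 of 21, fall between the dashed lines.

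Across the 21 matched candidates of the window, log2 signals correlated with a Pearson's r of 0.941 and a Spearman's rho of 0.868. Without the 2 strongest summits r was 0.792 and rho 0.821, and over all matched candidates r was 0.826 and rho 0.730. These coefficients run across summits that share the same 2 libraries and 1 control, and are descriptions only.

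The core Snail-family site CAGGTG was looked for at each summit. It lay within 50 bp of 1 of the 38, which is 1 of the 8 IDR summits, at 9949171 before the middle TSS, against 9.87% of all IDR summits and 5.36% of the 24795 candidates more than 500 bp from any IDR summit. Within 1000 bp of the strongest summit there was none, nor within 1000 bp of the summit at Pal1. That was so for 42.8% of all IDR summits. No match means only that these letters are missing from that stretch of the reference.

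Other words were present at the strongest summit. On either strand, the base of highest signal itself lay in ACAAGTG, a word found near 5.55% of IDR summits and near 2.34% of the other candidates, within the same 50 bp. It is ACAAGT joined to CAAGTG, the reverse complement of the Tinman site CACTTG, so the counts of these 3 words overlap. The joined word is not among the 10 words planned and was taken from this summit, so its shares are a description only. CAGCTG, an E-box of the kind bound by basic helix-loop-helix factors of muscle, lay 9 bp away and is found near 5.80% of IDR summits, and GAGAGA, the site of GAGA factor, lay 6 bp away and is found near 7.87%. The summit at Pal1 had none of the 10 words searched within 50 bp. Base composition also set these 2 apart, since GC made up 60.4% of the bases within 50 bp of the strongest summit, above 96.4% of IDR summits, and 31.7% around the summit at Pal1.

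Over the whole window, ACAAGT was within 50 bp of 5 summits, 3 of them IDR summits (10.8% of all IDR summits and 6.28% of other candidates have it), and ACAGGT, which overlaps the Snail core, was at 3, 2 of them IDR summits (9.48% and 4.32%). CACTTG was at 3 summits, with the other 2 at 9943007 and 9925124. TATTTA, the core of the site that Mef2 protein itself binds, was at 4 summits, 1 of them the IDR summit at Etf-QO and the other 3 intronic candidates of Mef2 with signals of 42.2 to 69.9. It is present at 23.9% of IDR summits and 17.2% of other candidates. GAGAGA was also at 4, CAGCTG and CACATG at 2 each, CATATG at 1 and CAGGTA, the site of the early activator Zelda, at 0. With 38 summits and single-digit counts, none of these words can be said to be more or less frequent at Mef2 than elsewhere.

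Set against the rest of the list, the strongest summit was the highest of the intronic ones away from a TSS. By signal it was the third of the 790 IDR summits on 2R. Among the 1066 IDR summits that lay in introns and more than 1000 bp from a protein-coding TSS it was the highest, 14.8-fold above their median of 218. The next were those of Kah itself (2396), CG11050 (2201), the GATA cofactor gene ush (2043) and Prps (2032). Among all 1952 intronic IDR summits 2 were higher, both closer to a TSS, at 383 bp and 55 bp. Of the 1819 protein-coding genes with an IDR summit inside them, the strongest one was intronic and more than 1000 bp from the gene's own TSSs in 546 (30.02%). In 510 of these the gene also had a candidate within 500 bp of a TSS, and the ratio of the strongest summit to the highest promoter candidate had a median of 2.35. At Mef2 it was 18.6, the 14th highest of the 510.

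As a gene, Mef2 stood near the top in number of summits and less so in summits per kb. With 8 IDR summits it was exceeded by 38 of 13968 protein-coding genes and equalled by 32, where the median gene had 1 and the highest 16. With 38 candidates it was exceeded by 59 genes, against a median of 6 and a highest of 114. An IDR summit in the gene or 10000 bp to either side was found for 57.9% of all protein-coding genes. Per kb of window, Mef2 was at percentile 87.8 for IDR summits and 92.4 for candidates, against 99.5 for both by number. Among the 373 genes with windows within 20% of its length, 6 had more IDR summits and 14 more candidates. By the strongest IDR signal in the window, 41 genes stood higher, though windows of neighbouring genes overlap and share summits.

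**Figure D5:**
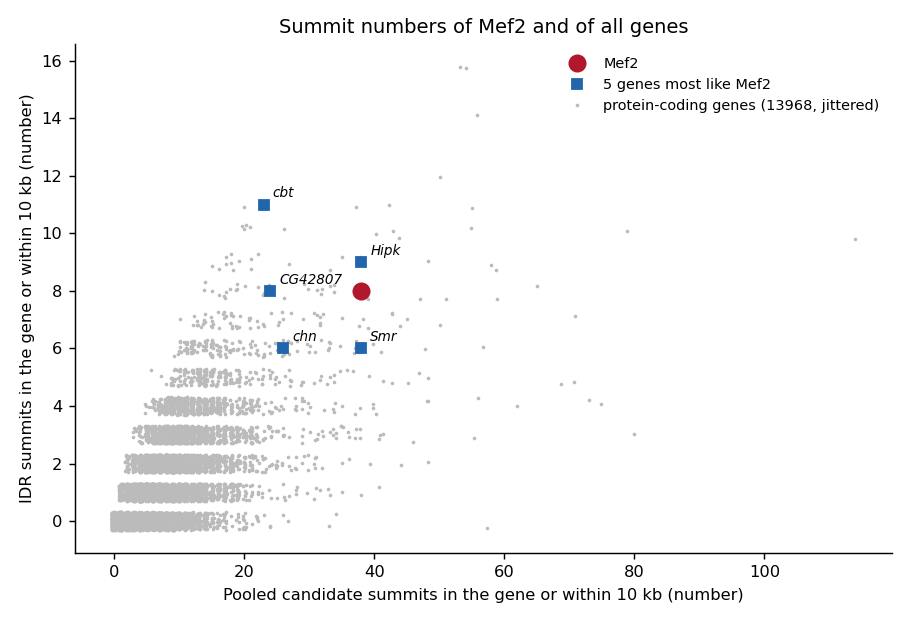
Number of IDR summits against number of pooled candidates within each protein-coding gene and 10 kb to either side, for Mef2 (red), the 5 genes most like it (blue squares, named) and all 13968 genes (grey, shifted slightly at random so that equal values can be seen). Mef2, at 38 candidates and 8 IDR summits, lies at the edge of the bulk of genes.

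The 5 genes most like Mef2 in candidates, IDR summits, strongest signal and its distance from a TSS were Hipk, a homeodomain-interacting kinase gene (38 candidates, 9 IDR summits, strongest signal 2396), CG42807 (24, 8 and 1774), the zinc finger gene chn (26, 6 and 3420), the zinc finger gene cbt (23, 11 and 4792) and the corepressor gene Smr (38, 6 and 1367). Their distances over the 4 scaled measures were 1.10, 1.37, 1.40, 1.41 and 1.57, where the median of 8084 genes was 5.53. In all 5 the strongest summit lay outside the gene and closest to the TSS of another, which for Hipk is Kah. At Mef2 it lay inside the gene and Mef2 had the nearest TSS.

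Genes known to act on Mef2 in the fly were described in the same way. Of 16 upstream regulators, 10 had an IDR summit in the gene or within 10000 bp, 4 at a promoter and 5 in an intron of their own, or 62.5%, 25% and 31.25% of the list. Over all protein-coding genes the shares were 57.9%, 17% and 8.66%, so that the first of these is near the background. Gene length, which bears on all such counts, was not matched. The highest signals were at tin, the homeodomain factor of heart and visceral muscle (943, with 399 in replicate 1 and 540 in replicate 2, and closer to a TSS of mod(mdg4)), Med, the common Smad of Dpp signalling (820, at the promoter of Mnat9), and the receptor gene N (779, in its own intron). The gene of the Dpp pathway repressor shn had the most, 12 IDR summits among 50 candidates, up to a signal of 506. The mesoderm activator twi, with 20 candidates, had 0 IDR summits, as did lmd (12 candidates), sna (3), bap (4), ap (14) and Su(H) (4).

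All 5 partners of Mef2 had an IDR summit within 10000 bp, 0 at a promoter of their own and 2 in an intron (40%), against 57.9%, 17% and 8.66% of all genes. With 5 genes these counts are too few to set the list apart. The highest were near HDAC4, whose product is a histone deacetylase that binds Mef2 (991, at the promoter of mew), Cf2, a zinc finger factor of muscle gene expression (586, at that of CG3036), and nau, the fly MyoD homologue (296, next to CG10365). All 3 stood closest to another gene's TSS. Of 16 factors that give single muscles their identity, 8 had an IDR summit (50%), 3 at a promoter and 3 in an intron (18.75% each). The shares with any IDR summit and with one at a promoter are near the 57.9% and 17% of all genes, and 8.66% of all genes have an intronic one. They were led by the LIM homeodomain gene tup (520), the T-box gene org-1 (443) and the paired-domain gene Poxm (367), whose strongest summits were 291, 348 and 403 bp from their own TSSs. The gene lists overlap, since nau and vg are listed both as partners and as identity factors. Likewise, ap is listed as an upstream regulator and an identity factor, and sna as an upstream regulator and a Snail family gene.

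Muscle structural genes, many of them direct targets of Mef2 protein, had IDR summits at 15 of 19, with 10 at a promoter and 4 in an intron, or 78.9%, 52.6% and 21.1% of the list, against the same 57.9%, 17% and 8.66%. Signals were highest near the tropomyosin gene Tm1 (805, next to Cp190), at the Z-disc gene Zasp52 (803) and at up, which encodes troponin T (768), the summits of Zasp52 and up being 123 and 74 bp from their own TSSs. The myosin genes Mhc, Mlc1 and Mlc2 and the titin-like gene bt had 0. In the Snail family, 3 of 6 genes had an IDR summit (50%), 2 at a promoter and 2 in an intron (33.3% each). Over all protein-coding genes the shares were 57.9%, 17% and 8.66%, and 6 genes are too few to set the list apart. The highest signals were at Kah (2396), which is in both the promoter and the intronic count, CG12605 (337) and esg (219). Since Mef2 was chosen for its signal, which 41 of all 13968 genes exceeded, its height is not compared with theirs. Median strongest signals were 481 for upstream regulators, 296 for partners, 273 for identity factors, 356 for structural genes and 337 for the Snail family, against 323 over all genes with an IDR summit in their window.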

How the data were processed

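The authors deposited peak lists in narrowPeak format: 1 list of candidates per replicate, 1 pooled list and the IDR list. Per the labels, the build was dm6 and the replicates were biological, from 1 line; 1 control alignment was shared. Aligner, caller and version: not given in the sources used here. Deposited signal is the peak caller's own value, on an unstated scale, and read depth is unknown. The deposited −log10 q was capped and was not used to rank. The IDR list was exactly the top of the pooled list by signal.

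Genes came from Ensembl release 115, on whose assembly 0 intervals ran beyond a chromosome end. A promoter was 500 bp to either side of a protein-coding TSS. Features were taken in the order 5' UTR, coding exon, 3' UTR, non-coding exon, intron, intergenic. Summits matched within 100 bp, and motifs were searched as whole words on both strands within 50 bp. Intervals of shares are exact Clopper-Pearson. No test was run, since Mef2, its window and the gene lists were chosen with earlier results of these data known. Genes named were Mef2, those in its window, the 3 of highest signal in each list, Kah and the 5 most like Mef2; others were named after their values were seen. Summit sequences are not reported here. The scripts were tested on simulated data (Python 3.11.15, pandas 2.3.3, SciPy 1.17.1).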

Additional observations from a re-analysis of the deposited data

How the results depend on the processing

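Of 37 alternative values, 12 moved and 0 changed direction. The other 25 stayed within tolerance, which was 1.5 times for counts and ranks, the 95% interval for shares and percentiles and 1 SD for the replicate ratio and the distance. Within it, the share was 25% without replicate 1 and 32.4% without replicate 2 (21.1% in the pooled list), and candidates matched in both replicates numbered 15 within 50 bp (21 within 100 bp). With only the 2052 strongest IDR peaks, 3 IDR summits were left in the Mef2 window, or 7.89% of its candidates. CAGGTG was found at 0 summits within 25 bp and at 4 within 100 bp. The strongest summit lay 3547 bp from the distal TSS without replicate 1 and 3543 bp without replicate 2, and the latter was counted as moved. By IDR summits Mef2 was at percentile 99.8 with 5000 bp to either side, 99.7 in the gene body and 87.8 per kb of window, and by candidates at 99.6 in the gene body and 92.4 per kb. With either replicate's own list, IDR-equivalent summits numbered 9 to 11 and the strongest ranked 7 to 11. No paired analysis was possible because there was 1 group. The limits are 2 replicates, no read counts, an unknown signal scale and assignment of summits to genes by position alone.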

Other observations

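A window of 20000 bp to either side of Mef2 held 9 IDR summits among 40 candidates, 1 and 2 more than at 10000 bp. The first intron of RH held 20 candidates with 5 IDR summits, and that of RF 13 with 4. The 1959 bp first intron of RG held 3 with 1, whereas the 6896 bp first intron shared by most proximal transcripts held 5 with 0. Below the IDR threshold, the 5' UTR exons of the proximal transcripts held 2 candidates, with signals of 55.1 and 81.4, and the 500 bp to either side of the middle TSS held 2, with 41.9 and 93.3.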
